A study of Mus musculus with 6 samples.

Results

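Annexins and S100 proteins are the subject here, as measured in cultured mouse muscle precursors treated or not with TGFb. The members are all genes that the array annotation names Anxa followed by a number, or S100 followed by a letter: 12 annexin genes and 18 S100 genes, 30 of 36499 genes on the array, read by 40 of its 55681 probes. One of the 18, S100pbp, encodes the S100P-binding protein and is not an S100 protein, which leaves 17. Members were chosen by name, but the family was selected on the intensity difference of Anxa8 between these same arrays, so Anxa8 is described with its values and without a test.

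Both groups were primary myoblasts sorted by flow cytometry from skeletal muscle of male C57BL/6 mice aged 3 months and grown in DMEM with 20% serum, L-glutamine and antibiotics. One group (3 arrays) received TGFb for 4 days and the other (3 arrays) did not; no genetic change is labelled in either. Each sample was hybridised in Cy3 to a one-colour Agilent whole-genome array, so 1 treatment time and 1 cell preparation type stand behind every value. Values below are log2 intensities relative to the 75th percentile of the same array, which sets 0 at that percentile, and they are compared between groups for a probe, never between probes.

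Annexins are proteins that bind the phospholipids of membranes when calcium is present; they take part in vesicle traffic, membrane repair and the handling of the cytoskeleton. S100 proteins are small calcium sensors of the EF-hand type, and most act as dimers that bind a target once calcium has opened a docking surface. The families meet in known pairs: S100A10 binds annexin A2, and S100A11 binds annexin A1. In muscle fibres, annexins A1, A2, A5 and A6 gather at sites of membrane injury.

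Arrays lay apart by the day on which they were scanned more than by treatment. Day 1 held TGFb 1 with untreated 1 and 2, and day 2 held TGFb 2 and 3 with untreated 3. Scan day split the arrays along the leading axis of a principal component analysis (72.4% of variance), and arrays of the same day and different groups correlated more closely (r 0.970 to 0.977 across genes) than arrays of the same group and different days (r 0.919 to 0.929). Each result is therefore given with group as the only term and again with scan day as a second term. Untreated 1 and 2 were closer to each other (median absolute log2 difference 0.12 per gene, on different slides) than TGFb 2 and 3 were (0.36), and the scanner file names number both of them 2. The labels call all samples biological replicates, but whether these arrays come from separate cultures was not settled; if they do not, the p-values are too small. Of 8 myoblast markers, 7 were well above background on all 6 arrays, among them Myod1, Pax7 and Des, and Myf5 on 1. Some markers of other cell types were so too. They were 4 of 8 for fibroblasts and fibro-adipogenic cells, 3 of 8 for macrophages and 3 of 6 for Schwann and glial cells. Endothelial cells had 2 of 6, neutrophils 2 of 8, adipocytes 1 of 6 and epithelia 1 of 7.

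Signal well above background on at least 3 arrays was seen for 23 members (11 annexins and 12 S100 genes, S100pbp included), which were tested among 22000 genes. With group alone, 1 of the 11 annexins rose and 0 fell, against 0.686% of all genes tested that rose and 0.677% that fell; the riser was Anxa8, the gene behind the choice, so nothing is read from this count. Of the 12 S100 genes 0 rose and 0 fell by limma at an adjusted p of 0.05. For 1, S100a3, the unadjusted p was under 0.05, as it was for 2531 of the 22000 genes tested. With scan day as a term, 2 annexins rose (Anxa8 and Anxa1) and 1 fell (Anxa11), while 0 S100 genes rose or fell. Nothing is read from Anxa8 in this count either. Of the 22 members other than Anxa8, 1 rose and 1 fell in that fit. Over all genes 4.59% rose and 5.53% fell there (10.1% in either direction). Across the 22 members other than Anxa8 the median difference was 0.13 log2 units (0.06 with scan day), against 0.05 (0.04) over all genes tested, and the median absolute difference was 0.31 (0.29 with scan day) against 0.45 (0.34).

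**Figure D1:**
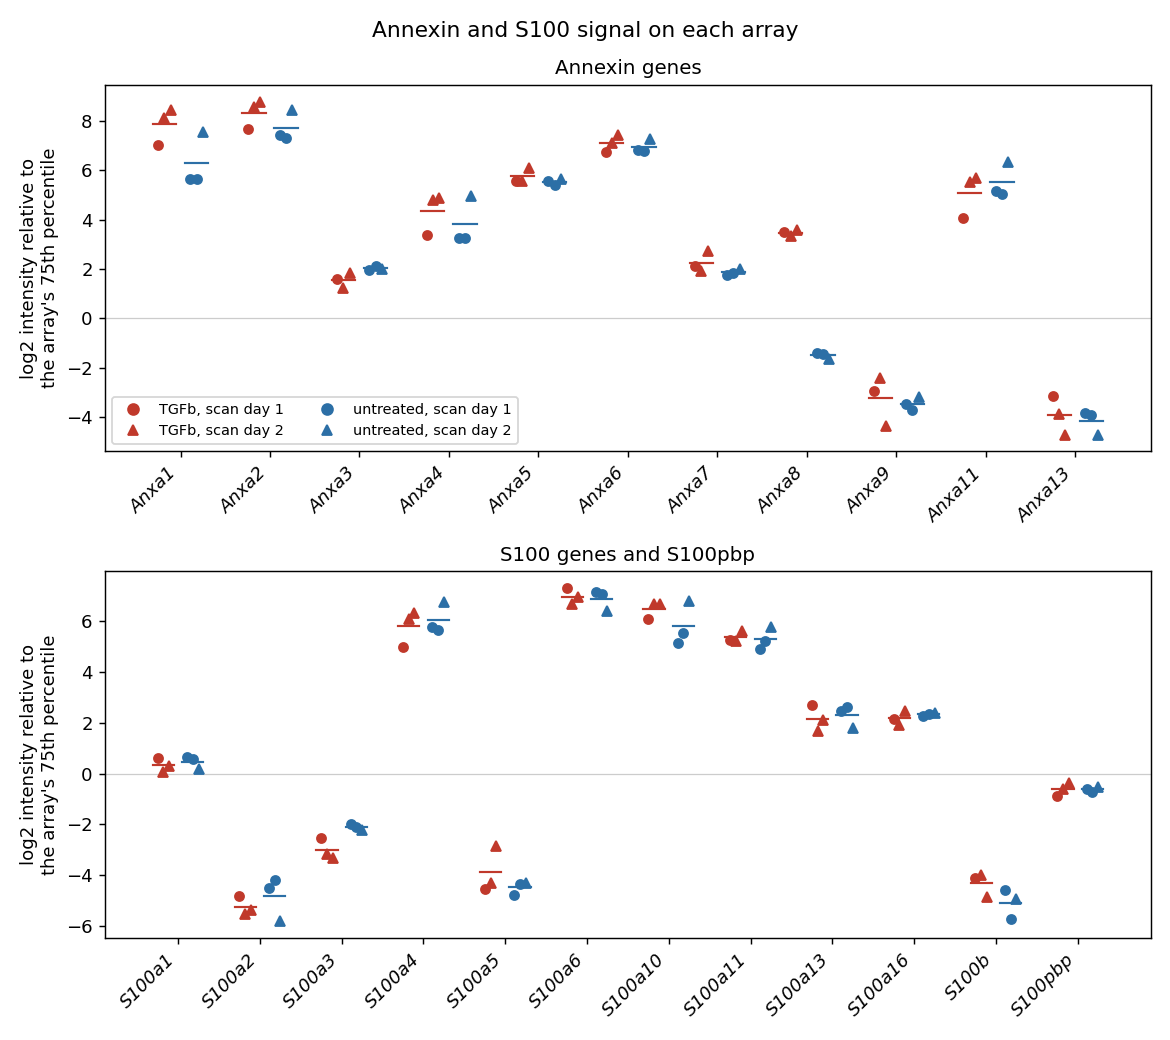
Signal of each tested member on each array, as log2 intensity relative to the 75th percentile of that array, with TGFb arrays left of untreated arrays, circles for scan day 1, triangles for scan day 2 and a line at each group mean. Anxa8 is the gene with the widest gap (means 3.47 after TGFb and -1.49 untreated), and Anxa1, Anxa11 and S100a4 shift with the scan day within each group.

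Anxa8 was about 31.1-fold higher after TGFb. The gene encodes annexin A8, a calcium-dependent membrane binder linked to endosomes and the actin cytoskeleton and best known from epithelia. Its main probe, spotted 10 times on each array, lies at chr14:34913661-34913720 on the plus strand of mm9, and a second probe lies 513 bases upstream. The opening 30 bases of both are shown because they are the readout of the family's largest difference.
Anxa8 main probe: atcctctgatcgtggtctccgagcctgaag
Anxa8 second probe: gtataccgcccaccctagcattacctctga
The main probe gave 3.48, 3.35 and 3.57 on TGFb arrays 1 to 3, against -1.40, -1.42 and -1.65 on untreated arrays 1 to 3. These are processed intensities of 10595, 12110 and 16076 after TGFb, against 332, 372 and 501 in untreated cells. All 3 treated arrays lay above all 3 untreated ones, and the spread within either group was small beside the gap. The means were 3.47 ± 0.11 after TGFb and -1.49 ± 0.14 in untreated cells (SD, n = 3 each), a difference of 4.96 ± 0.24 (SE) with group alone and 5.0 ± 0.15, or 32-fold, with scan day as a term. Within the scan days the difference was 4.89 on day 1 and 5.11 on day 2, and within the 2 slides that held both groups it was 4.90 and 5.0. The second probe gave 0.81, 0.82 and 1.36 after TGFb and -3.06, -3.04 and -3.55 in untreated cells, a difference of 4.21 on the log2 scale. Anxa8 was fifteenth among the rises of all genes tested by size, and 26 alternative settings put its difference between 4.68 and 5.11. In bulk samples such as these, more cells expressing a gene and more RNA per cell cannot be told apart.

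Anxa1 rose with scan day as a term, by 1.05 ± 0.21 log2 units (2.07-fold, 95% interval 0.53 to 1.57, adjusted p = 0.0377 by limma), but did not pass with group alone (1.57 ± 0.66, adjusted p = 0.448). Annexin A1 is a ligand of formyl peptide receptors known for its role in ending inflammation. The array carried a pair of probes for it at 1784 bases from each other on the minus strand, here shown because they answered differently to the scan day; the capitals mark a polyadenylation signal, AATAAA.
Anxa1 main probe, last 30 bases: cctgagaaagaagtttacatatAATAAAat
Anxa1 second probe: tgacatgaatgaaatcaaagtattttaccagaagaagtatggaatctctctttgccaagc
The main probe read 7.01, 8.11 and 8.43 after TGFb, against 5.64, 5.66 and 7.53 in untreated cells. Groups overlapped, since untreated 3 lay above TGFb 1, yet on each scan day all treated arrays lay above the untreated ones, by 1.36 on day 1 and 0.74 on day 2. The second probe differed by 1.05 ± 0.40 with scan day as a term (1.04 and 1.05 within the days; probe-level adjusted p = 0.183). The day-term call was kept on leaving out TGFb 2 and lost on leaving out TGFb 1, TGFb 3, untreated 1, untreated 2 or untreated 3, where the difference was 0.74, 1.02, 1.00, 1.01 and 1.36 log2 units and the adjusted p = 0.162, 0.053, 0.148, 0.153 and 0.093. It was also lost when untreated 1 and 2 were averaged and counted as 1 sample (1.00, adjusted p = 0.150).

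Anxa11 fell with scan day as a term, to 0.547-fold (-0.87 ± 0.16 log2 units, 95% interval -1.27 to -0.47, adjusted p = 0.0300 by limma), and did not pass with group alone (-0.41 ± 0.58, adjusted p = 0.805). Annexin A11 has a long disordered amino-terminal region and tethers RNA granules to lysosomes. Its probes lie 12063 bases apart on the plus strand and are shown for the same reason as those of Anxa1.
Anxa11 main probe, first 30 bases: tgtagccaaaagctgtttccaAATAAAagt
Anxa11 second probe: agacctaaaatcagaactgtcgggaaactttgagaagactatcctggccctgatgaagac
The main probe read 4.07, 5.50 and 5.69 after TGFb, against 5.15, 5.04 and 6.31 in untreated cells. The groups overlapped over all 6 arrays, while on each day the treated arrays lay below the untreated ones, with differences of -1.02 on day 1 and -0.72 on day 2. The second probe differed by -0.69 with scan day as a term (-1.04 on day 1 and -0.34 on day 2; probe-level adjusted p = 0.128). The call was kept on leaving out TGFb 3 and lost on leaving out TGFb 1, TGFb 2, untreated 1, untreated 2 or untreated 3, where the difference was -0.72, -0.85, -0.82, -0.87 and -1.02 and the adjusted p = 0.146, 0.0624, 0.146, 0.147 and 0.122. With untreated 1 and 2 averaged as 1 sample it was -0.85 (adjusted p = 0.144).

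Annexin A3, long called lipocortin III, was lower on every TGFb array without passing the test. Anxa3 read 1.58, 1.23 and 1.84 after TGFb and 1.98, 2.11 and 1.98 in untreated cells. The groups did not overlap, as was so for 9.45% of all genes tested in this direction and 8.37% in the other. The difference was -0.47 ± 0.27 (adjusted p = 0.606; -0.46 ± 0.21 and adjusted p = 0.242 with scan day).

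The remaining 7 annexins gave differences between 0.15 and 0.62 log2 units with group alone and between -0.01 and 0.58 with scan day as a term, none past the threshold by limma in either fit. Annexins A2, A5 and A6, the other members with a known place in the repair of muscle membranes, had 95% intervals with scan day of -0.10 to 0.64 (Anxa2), -0.35 to 0.65 (Anxa5) and -0.41 to 0.39 (Anxa6). Anxa2 read 7.65, 8.57 and 8.77 after TGFb, against 7.41, 7.30 and 8.43 in untreated cells, so its difference of 0.62 with group alone was 0.27 with scan day. Anxa4 shifted most with the day among annexins (1.58 higher on day 2 than on day 1), and the 95% interval of its group difference in the scan-day fit was -0.37 to 0.36. Anxa9, known as an annexin with altered calcium-binding sites, and Anxa13, the annexin of intestine and kidney, were near background, where TGFb 3 (Anxa9, -4.35) departed from TGFb 1 and 2 (-2.92 and -2.39). In the scan-day fit without TGFb 3 they gave 0.71 (Anxa9, adjusted p = 0.0437 by limma) and 0.79 (Anxa13, adjusted p = 0.0262). In all, 3306 genes passed there. Leaving out any other array in the scan-day fit put Anxa9 between -0.21 and 0.67 (adjusted p between 0.784 and 0.944). Anxa13 then lay between 0.41 and 0.75 (adjusted p between 0.298 and 0.575).

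**Figure D2:**
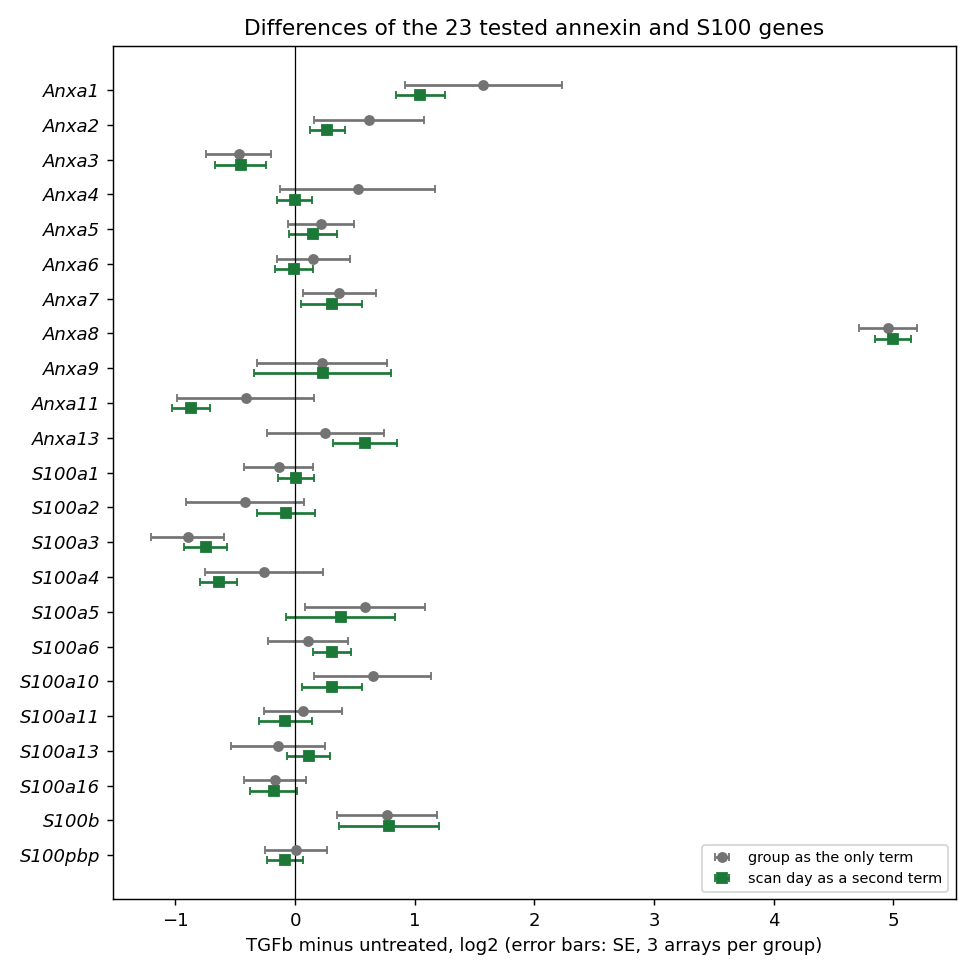
Difference (TGFb minus untreated, log2) of the 23 tested members with SE (3 arrays per group), in grey with group as the only term and in green with scan day as a second term. Outside Anxa8, at 4.96, the differences with group alone run from -0.90 (S100a3) to 1.57 (Anxa1).

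Of the S100 genes, S100a3 came nearest to the threshold with group alone and with scan day as a term. S100A3 is a protein of hair cuticle cells. Its gene read -2.54, -3.16 and -3.33 after TGFb, against -2.00, -2.09 and -2.24 in untreated cells. The signal was dim but well above background on every array. Processed intensities were 133 to 163 after TGFb and 218 to 333 in untreated cells. All treated arrays lay below all untreated ones, and the difference was -0.90 ± 0.30 (adjusted p = 0.321 by limma) with group alone and -0.75 ± 0.18 (adjusted p = 0.0630) with scan day. Within the days it was -0.49 and -1.01.

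S100a4, also known as fibroblast-specific protein 1 and a binder of non-muscle myosin, did not pass in either fit. Its main probe read 4.97, 6.11 and 6.32 after TGFb, against 5.77, 5.66 and 6.75 in untreated cells. The groups overlapped; within each day the treated arrays were the lower ones, with differences of -0.74 and -0.53. The difference was -0.26 ± 0.49 (adjusted p = 0.852) with group alone and -0.64 ± 0.15 (95% interval -1.02 to -0.25, adjusted p = 0.0633) with scan day, and a second probe 174 bases upstream gave -0.40 with scan day. Leaving out TGFb 3, where 3306 genes passed in all, the scan-day fit put S100a4 at -0.70 with an adjusted p = 0.0365. The other 5 leave-outs in that fit gave an adjusted p between 0.0995 and 0.240. The probes are shown because they moved in opposite directions between scan days.
S100a4 main probe, last 30 bases: caaattcAATAAAaggttttgaaactatta
S100a4 second probe: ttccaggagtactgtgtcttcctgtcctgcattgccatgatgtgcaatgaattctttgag

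S100a10 and S100a11, the partners of annexins A2 and A1, differed by 0.65 ± 0.49 and 0.06 ± 0.32 with group alone, and by 0.31 ± 0.25 (95% interval -0.33 to 0.95) and -0.08 ± 0.22 (-0.64 to 0.48) with scan day. S100a6, encoding calcyclin, differed by 0.31 ± 0.16 with scan day (adjusted p = 0.284). S100a1, the S100 protein of striated muscle that acts on calcium release and uptake, differed by 0.01 ± 0.15 (95% interval -0.37 to 0.39) in that fit. These intervals leave room for changes of up to 0.95 log2 units for S100a10. S100b, the glial S100 protein, was dim, well above background on 3 TGFb and 2 untreated arrays, and differed by 0.77 ± 0.42 (adjusted p = 0.584). The other tested S100 genes (S100a2, S100a5, S100a13, S100a16) and S100pbp lay within -0.42 to 0.58 with group alone. On chromosome 3, mm9 places the probes of 14 S100 genes between bases 90314959 and 93368496; the 10 tested there spread from -0.75 to 0.38 with scan day, on both sides of 0.

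For 7 members no test was made. Anxa10, S100a8, S100a9 and S100z were not well above background on any of the 6 arrays. S100A8 and S100A9 form calprotectin, the abundant cytosolic protein of neutrophils, and neutrophil markers on the array were mixed. Of 8, Mpo, Ltf, Ngp, Retnlg and Cxcr2 were not well above background on any array. Elane and Csf3r were well above it on all 6 arrays, and Camp was so on 1 TGFb and 2 untreated arrays. The signal of the list was summed as a multiple of the array's 75th percentile. The sum was 11.9 to 56.3 on TGFb arrays and 7.18 to 47.5 on untreated arrays. Elane had no value on TGFb 2 and untreated 3, where its spots were dropped as outliers. The sums of those arrays lack Elane, so the sums do not compare across arrays. S100a7a was well above background on TGFb 1 and untreated 1, and S100g, the calbindin of the intestine, on TGFb 2 and untreated 3. S100a14 was not well above background on any TGFb array and was so on untreated 1 and 2, both scanned on day 1, but not on untreated 3. It read -5.52, -7.41 and -5.95 after TGFb, against -4.58, -4.71 and -5.83 in untreated cells, and the groups overlapped.

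Of the 8 genes with more than 1 tested probe, 3 had probes whose day differences lay within 0.1 log2 units of each other, and 5 had probes more than 1 log2 unit apart. Anxa7 (0.20 at both probes), S100a1 (-0.44 and -0.50) and Anxa8 were the close ones. Day 2 minus day 1 was 1.57 at the main Anxa1 probe and 0.26 at the second. Anxa11 gave 1.37 and -0.69, S100a4 gave 1.14 and -0.40, S100a16 gave 0.04 and -1.03, and the 3 probes of S100pbp gave 0.28, 1.58 and 0.06. Over the 32 tested member probes, this day difference correlated with the GC content of the 60-base probe at r = -0.69 (Spearman's rho -0.68), against r = -0.38 (rho -0.45) over 30200 tested probes; probes share the 6 arrays and pairs share a gene, so this is a description. The 9 member probes that hold AATAAA or ATTAAA, signals for polyadenylation, had a median day difference of 0.61, against -0.05 for the 23 without, and over all tested probes the medians were 0.67 and -0.07. Neither Anxa8 probe shifted much with the day (-0.13 and -0.11).

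**Figure D3:**
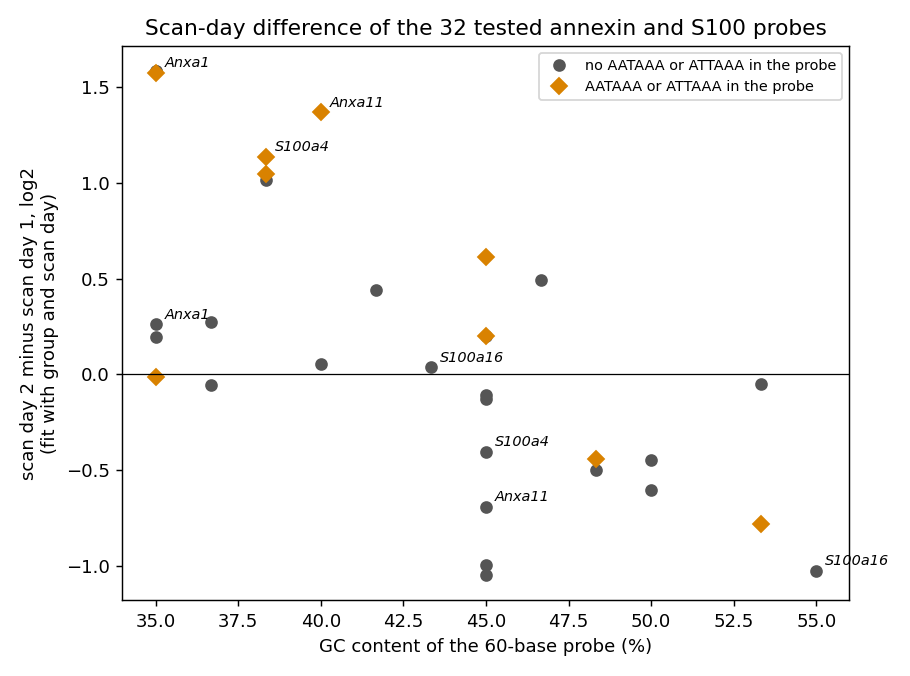
Day difference (scan day 2 minus scan day 1, log2, from the fit with group and scan day) of the 32 tested member probes against the GC content of each probe in percent, with diamonds for probes that hold AATAAA or ATTAAA. Probes low in GC sit higher (r = -0.69), and the paired probes of Anxa11 and S100a4 fall on opposite sides of 0.

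For Anxa1, Anxa8, Anxa11, S100a4 and S100a16 the probes of a gene differed in 1 direction after TGFb on both days. At the 1 probe tested per gene, 7927 of all 22000 genes were higher on both days and 6975 lower on both. The share among all genes with several probes was not counted, so nothing is read from this agreement. Among these, S100a16 passed the threshold in neither fit, and its probes gave -0.24 to -0.01 within the days. All 8 genes with more than 1 tested probe are covered by the plot of within-day differences. Both Anxa1 probes were higher after TGFb on both days (0.74 to 1.36), both Anxa11 probes lower on both days, and both S100a4 probes lower on both days (-0.74 to -0.25). The 3 S100pbp probes, which span 27369 bases, gave 0.01, 0.75 and -0.48 with group alone.

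**Figure D4:**
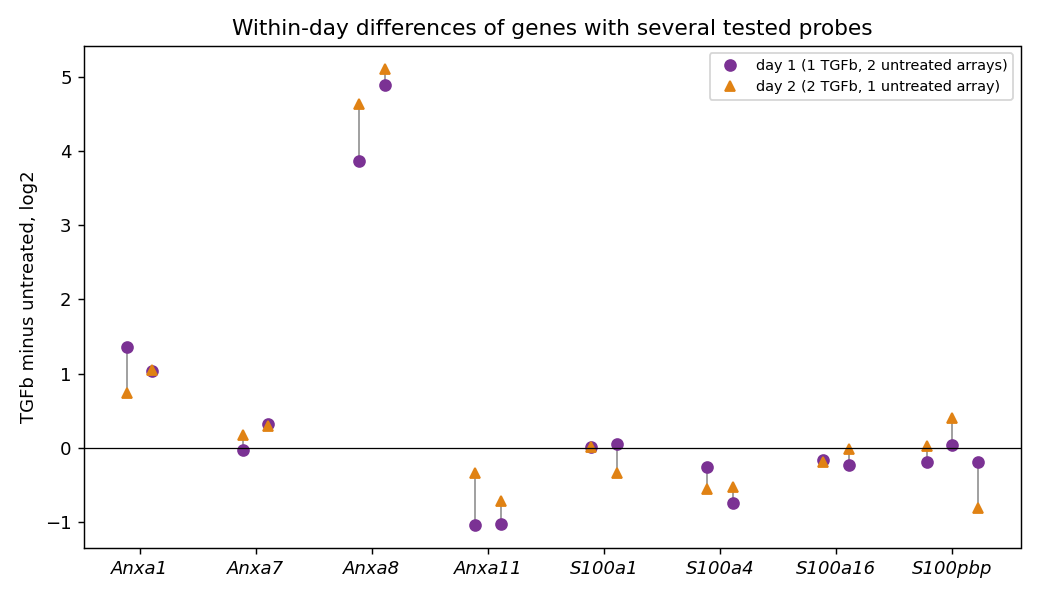
TGFb minus untreated within scan day 1 (circles) and scan day 2 (triangles), log2, for each tested probe of the genes with several, a line joining the 2 days of a probe. The Anxa8 probes lie between 3.86 and 5.11, and the Anxa11, S100a4 and S100a16 probes lie below 0 on both days.

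Genes that work with the family or resemble it were taken from lists. Of 27 partners and receptors, 22 were tested; 0 rose and 1 fell with group alone (Cav1), and allowing for scan day 3 rose and 2 fell. Cav1, encoding caveolin-1 of the membrane pits called caveolae, fell by 2.15 log2 units (adjusted p = 0.0230) and was well above background on 1 of 3 TGFb arrays. With scan day, Pla2g4a (phospholipase A2, an enzyme that annexin A1 restrains) rose by 1.64, and Cd36, a fatty acid receptor that binds S100A8 and S100A9 complexes, fell by 2.74; Iqgap1, a scaffold protein of the cell cortex, rose by 1.00. Of 28 other calcium-dependent membrane proteins such as ferlins, copines and synaptotagmins, 17 were tested, and 0 rose and 1 fell with group alone (Cpne9, a copine, at -2.88 log2 units with an adjusted p = 0.0387), while 2 rose and 4 fell in the fit with scan day. In that fit Syt11 (a synaptotagmin) gave 1.47, Rasa4 (a calcium-activated Ras regulator) 1.35 and Trim72 (MG53, which acts in muscle membrane repair) -2.27. Dysf, encoding dysferlin of the same repair process and named after its values were seen, gave -1.09. Among 32 tested small EF-hand proteins of 37, 0 rose and 2 fell with group alone, while 2 rose and 6 fell once scan day was a term. Tnnc2, fast skeletal troponin C, fell by 3.06 (adjusted p = 0.0150 by limma) and Pvalb, parvalbumin, fell by 2.22 (adjusted p = 0.0210). With scan day Calml3 and Calml4, calmodulin-like proteins, gave 1.89 and -1.22. Of the untreated arrays, Calml3 was well above background on 1. Over all genes tested 0.686% rose and 0.677% fell with group alone, and 4.59% rose and 5.53% fell with scan day, so each list's counts rest on few genes.

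Of 23 epidermal differentiation genes beside the S100 cluster, 5 were tested. With group alone 1 rose, against 0.686% of all genes tested. The fit with scan day called 4 rises and 1 fall, against 4.59% and 5.53% of all genes tested. Of the 5, Sprr2e, Sprr1a and Tchh entered the test only because 1 group was bright, 3 genes that had to differ, so nothing is read from these counts. Sprr2e, encoding a small proline-rich envelope protein, was not well above background on any untreated array and was at least 8.77-fold higher after TGFb. For Sprr1a, also dim in untreated cells, the bound was at least 4.56-fold higher. Lor (loricrin) gave a rise of 1.08 with scan day, while Tchh (trichohyalin) was not well above background on any TGFb array and at least 1.78-fold lower.

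RefSeq promoter windows on GRCm38.p6 (250 bases before to 50 after the start of transcription) were held for 24 of 30 members, 32 windows in all. They were searched on both strands for 5 motifs. CAGAC and GTCTAGAC are the short and full letters bound by SMAD3, which carries the TGFb signal to the genome. The letters TGANTCA are those of AP-1 factors. The letters CATTCC are those of TEAD factors, and the TATA box was searched as TATAAA. No motif lies whole within another, although CAGAC shares its last letters with GTCTAGAC. The short SMAD3 motif was found in 17 of the 32 windows, against 49.6% of 32851 promoters, GTCTAGAC in 0 (0.213%), TGANTCA in 4 (7.81%), CATTCC in 4 (14.7%) and TATAAA in 8 (13.6%). The windows of the genes past the threshold in either fit are printed with their matches in capitals, at chr14:34085729-34086028 (plus strand) for Anxa8, chr19:20390622-20390921 (minus strand) for Anxa1 and chr14:25841905-25842204 (plus strand) for Anxa11.
Anxa8 promoter: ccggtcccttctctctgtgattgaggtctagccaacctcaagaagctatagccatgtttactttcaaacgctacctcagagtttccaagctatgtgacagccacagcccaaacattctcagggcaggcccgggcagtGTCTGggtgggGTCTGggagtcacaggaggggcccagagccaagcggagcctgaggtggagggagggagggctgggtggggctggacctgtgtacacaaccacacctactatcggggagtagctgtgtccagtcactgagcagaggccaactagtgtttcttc
Anxa1 promoter: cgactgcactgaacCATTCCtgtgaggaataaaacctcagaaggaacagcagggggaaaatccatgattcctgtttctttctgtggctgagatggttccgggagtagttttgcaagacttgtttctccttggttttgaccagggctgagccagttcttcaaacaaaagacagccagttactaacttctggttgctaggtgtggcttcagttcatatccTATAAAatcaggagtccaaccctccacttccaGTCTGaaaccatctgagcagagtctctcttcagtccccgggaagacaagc
Anxa11 promoter: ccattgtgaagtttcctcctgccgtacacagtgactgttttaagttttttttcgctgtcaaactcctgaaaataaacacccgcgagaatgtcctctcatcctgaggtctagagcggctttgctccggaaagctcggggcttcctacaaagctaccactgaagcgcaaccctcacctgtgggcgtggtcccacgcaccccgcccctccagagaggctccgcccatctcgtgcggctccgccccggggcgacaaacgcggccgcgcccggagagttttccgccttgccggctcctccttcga
The Anxa8 window held CAGAC as GTCTG on the printed strand at positions -113 and -102 from the start. The Anxa1 window held it at 1, with CATTCC at -236 and TATAAA at -32, and the Anxa11 window held none of the 5 motifs. A match describes letters only.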

How the data were processed

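RNA was isolated by an RNeasy Micro kit and carried the dye Cy3, per the labels' protocols. The authors deposited 1 scanner file of spot intensity per array and 1 table of normalized log2 values (the sources used here do not give its normalization). Per the submitters' processing notes and file headers, Agilent Feature Extraction 10.7.3.1 subtracted background and spatial trends. The deposited table's columns have medians of 6.99 to 7.00 and each correlated best with its own array (r 0.992 to 0.993 across spots), so its scale rises with signal; its centring is unknown, and it served as an alternative.

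Control and outlier spots (176 to 365 per array) were dropped. The log2 of processed intensity was taken, the 75th percentile of the array (876 to 1569) was subtracted and spots of a probe were averaged. Probes well above background on at least 3 arrays were tested, 1 probe per gene (highest mean). On each array 50.9 to 55.8% of probes were well above background; no member probe was saturated. Limma 3.58.1 in R 4.3.3 (lmFit, eBayes) fitted all 22000 genes with group as the only term and with scan day as a second, with Benjamini-Hochberg adjustment over all of them at 0.05. The procedure was tested on simulated data in which the arrays vary independently. That run cannot tell whether untreated 1 and 2 are separate cultures. RefSeq accessions gave a name for 26300 of 55681 probes, and 2839 names changed. Members kept their names from the array annotation. Where 1 group was not well above background on any array, folds are bounds. The mean of the bright group is set against each dim array's detection limit (its dimmest detected probe) or the probe's own signal, whichever is higher. The members and lists were chosen with earlier results of these data known. Every member is accounted for; values per array are given for members past the threshold in either fit or with groups apart. Of each list up to 4 genes with the smallest adjusted p were named. S100a4, Anxa2, Anxa4, Anxa5, Anxa6, S100a6, S100a10 and S100a11 were singled out after their values were seen. The number of arrays limits the precision.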

Additional observations from a re-analysis of the deposited data

How the results depend on the processing

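With group alone 1 annexin or S100 gene rose and 0 fell, and those counts were unchanged with slide as a term, normexp and quantile normalization, quantile normalization alone, no filter on dim probes, a filter on all 6 arrays, and every probe tested. That riser was Anxa8, the gene behind the choice. Nothing is read from the unchanged count, or from Anxa8 where it is among the rises below. With scan day as a term 2 rose and 1 fell, where 2226 of 22000 genes passed in all. Slide as a random block (consensus correlation 0.881) gave 3 and 3, where 4271 genes passed in all. These were Anxa8, Anxa1 and S100b up, and Anxa11, Anxa3 and S100a3 down. The authors' normalized values gave 3 (Anxa8, Anxa1 and S100a6) and 1 (Anxa11), where 3292 genes passed in all. Some alternatives were chosen after seeing the data. With scan day, normexp and quantile values gave 2 and 2 (3186 genes in all) and quantile values 2 and 1 (2649 in all). The authors' table with scan day gave 2 and 2 (3415 in all). S100a3 was among the falls on the normexp and quantile values and on the authors' table. Averaging untreated 1 and 2 as 1 sample gave 0 and 0, where 0 genes of the whole table passed with limma (1457 had an unadjusted p under 0.05). With scan day as well, that averaging gave 1 and 0 (668 in all). Leaving out 1 array gave 0 to 1 rises and 0 falls with group alone, where 0 to 193 genes passed in all. With scan day it gave 1 to 3 rises and 0 to 2 falls, where 327 to 3306 genes passed in all. Anxa8, described above without a test, was not counted as a rise with group alone after leaving out TGFb 2, TGFb 3, untreated 1 or untreated 2, where 0 to 2 genes passed in all and its difference was 4.91 to 5.02. Adding the replicate number as a block gave 0 rises and 0 falls (2 genes in all). The deviations of same-numbered arrays from their group means correlated at 0.81, -0.72 and 0.69. Replicates 1 and 3 shared a scan day across the groups and replicate 2 did not, so these correlations cannot tell pairing from scan day. Whether the numbers pair the samples was not settled. No call changed sign. Dim signal limits Anxa9, Anxa13, S100a2, S100a3, S100a5 and S100b. Of these, S100a2 and S100b were not well above background on every array.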
